A study of Mus musculus with 8 samples.

Results

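Astrocyte genes were followed in the hippocampus of mice that had drunk hydroxyurea and of mice that had not. The set held 35 of the 21368 genes named on the array: 31 that mark resting astrocytes and 4 that mark reactive ones, Gfap, Vim, Serpina3n and Cd44. They were chosen by name as known markers of astrocytes, with earlier results of these data known. Hydroxyurea inhibits ribonucleotide reductase, which makes the building blocks of DNA, and the series is concerned with protection of hippocampal neurons and with memory. Each of 8 female mice gave 1 hippocampal RNA sample, and each sample was hybridised to a 1-colour Agilent microarray.

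The 4 Hydroxyurea mice were given hydroxyurea in the water they drank, at 45 mg/kg/day over 10 weeks, beginning at 9 to 14 weeks of age. When hippocampi were taken, Hydroxyurea 1 and 2 had reached 24 weeks, and Hydroxyurea 3 and 4 had reached 19 weeks. The 4 Control mice were untreated and all 19 weeks old. All 8 were nontransgenic littermates of APPswe/PSEN1dE9 mice on a C57BL/6J background, so no mouse studied here carried the disease transgenes. The labels say that cages were shared, but not by which mice. The 8 arrays lay on 1 slide, the Hydroxyurea arrays in row 2 and the Control arrays in row 1, so slide row and treatment cannot be told apart.

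Astrocytes clear glutamate from synapses and turn it into glutamine, move water and ions between tissue and vessels, store glycogen, and are coupled to each other through gap junctions. After injury or in inflammation they become reactive: the intermediate filament proteins GFAP and vimentin increase, together with genes such as Serpina3n and Cd44. In the hippocampus GFAP and vimentin also occur outside mature astrocytes, GFAP in the radial glia-like stem cells of the dentate gyrus and vimentin in ependymal, vascular and meningeal cells.

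The 75th percentile of the signal was 1052 on Hydroxyurea 2, 1680 to 2162 on the other Hydroxyurea arrays and 1677 to 2417 on the Control arrays. Control 1 was the noisiest array, with a median coefficient of variation of 10.6% between repeated spots, where the remaining 7 arrays had 3.19% to 3.56%. All values below are log2 signal minus the 75th percentile of the same array, so 0 is that percentile and 1 unit is a doubling. They are compared between mice for 1 probe, never between genes. All 35 astrocyte genes were well above background on all 8 arrays, so the markers that define the set were present in this tissue.

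No astrocyte gene passed the test between Hydroxyurea and Control mice. The limma test, run over 16620 genes with Benjamini-Hochberg adjustment, called 0 astrocyte genes and 0 genes in all (0%). At an unadjusted p under 0.05 it gave 1 astrocyte gene, Cd44, with a higher value and 0 with a lower value, while 9.89% of all genes tested reached that level, 3.53% higher and 6.36% lower. Without Control 1 the count was 4 (Hepacam, Slc7a10 and Sox9 higher, Htra1 lower, and not Cd44), and without Control 2, Control 4, Hydroxyurea 1 or Hydroxyurea 3 it was 0. Without Hydroxyurea 4 it was 1, Gjb6 with a lower value in place of Cd44. Over all 16620 genes, 2521 reached that level without Control 1 and 1643 with all 8 arrays. In 0 astrocyte genes were the 2 groups of mice fully apart, against 7.5% of all genes tested (2.38% higher and 5.11% lower). The mean was higher in Hydroxyurea mice for 16 astrocyte genes and lower for 19, and 48.7% of all genes had a higher mean. The median log2 fold change was -0.01 over the astrocyte genes and 0.00 over all genes tested, and single genes lay between -0.26 and 0.31. In bulk tissue, fewer cells of a type and less RNA per cell cannot be told apart.

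The absence of a call came with fairly narrow intervals. For 31 of the 35 genes (88.6%) the 95% interval of the fold change lay within 1.5-fold in either direction, compared with 77.7% of all genes tested. The 4 exceptions were Hepacam, Gjb6, Vim and Cd44. The standard deviation between mice of a group had a median of 0.14 for the resting genes, 0.21 for the reactive genes and 0.15 over all genes tested.

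**Figure D1:**
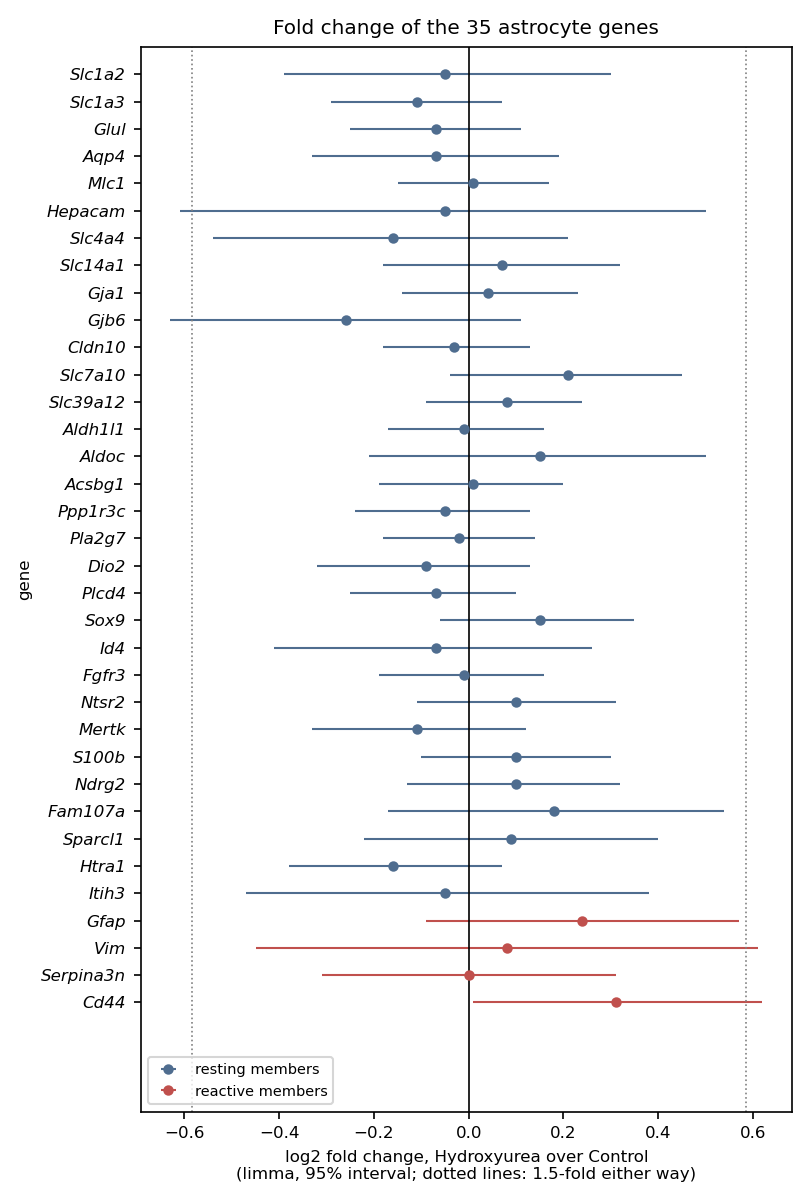
Log2 fold change of each of the 35 astrocyte genes, Hydroxyurea over Control (x axis, log2 units; points, limma estimates; bars, 95% intervals; n = 4 mice per group), with resting and reactive genes in different colours and dotted lines at 1.5-fold either way. All estimates lie between -0.26 and 0.31, and the interval of Cd44, from 0.01 to 0.62, is the only one that does not include 0.

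The 3 genes of glutamate uptake and recycling had slightly lower means in Hydroxyurea mice, and none passed the test. Slc1a2 encodes the main glutamate transporter of forebrain astrocytes. It measured 3.15, 3.52, 3.26 and 2.94 in Hydroxyurea mice 1 to 4, against 3.52, 3.31, 2.98 and 3.23 in Control mice 1 to 4. The 2 groups covered nearly the same range, with Hydroxyurea 4 and Control 3 low and Hydroxyurea 2 and Control 1 high. Its log2 fold change was -0.05 ± 0.15 (SE, n = 4 per group; 95% interval -0.39 to 0.30; limma adjusted p = 0.933). Of 2 further Slc1a2 probes, both had small positive estimates, 0.06 ± 0.12 and 0.07 ± 0.25.

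Slc1a3, the glutamate transporter shared with radial glia, measured 4.35, 4.34, 4.08 and 4.26 in Hydroxyurea mice, against 4.30, 4.32, 4.46 and 4.38 in Control mice. Hydroxyurea 3 was the lowest of the 8 and Control 3 the highest, and the other mice overlapped. The difference was -0.11 ± 0.08 (interval -0.29 to 0.07, limma adjusted p = 0.648). Glul, the glutamine synthetase that converts the glutamate taken up, measured 5.65, 5.87, 5.71 and 5.78 in Hydroxyurea mice, against 5.94, 5.79, 5.70 and 5.88 in Control mice. The groups overlapped over most of their range, and the difference was -0.07 ± 0.08 (interval -0.25 to 0.11, limma adjusted p = 0.771). For Slc1a3 and Glul, as for Slc1a2, a loss of 1.5-fold lies outside the interval.

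The promoter of Slc1a2 is shown here for the glutamate group, and those of 3 reactive genes follow where those genes are described. Sequences are RefSeq's for GRCm38.p6, cover 300 bases, of which the last 50 follow the listed start, and are read on the gene's own strand. The Slc1a2 window is chr2:102706188-102706487 on the plus strand, and capitals mark a match to TTGGC, the half-site of nuclear factor I, on the opposite strand.
Slc1a2: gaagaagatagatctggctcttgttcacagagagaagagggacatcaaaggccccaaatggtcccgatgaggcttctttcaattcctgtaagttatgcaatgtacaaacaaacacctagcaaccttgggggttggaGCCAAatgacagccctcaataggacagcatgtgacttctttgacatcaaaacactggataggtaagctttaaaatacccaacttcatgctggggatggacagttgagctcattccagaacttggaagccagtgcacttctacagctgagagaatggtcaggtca
That motif was found on either strand in 14 of the 31 astrocyte genes with a promoter in the table (45.2%) and in 47% of all 27025 promoters, so it was about as frequent here as elsewhere.

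The water, ion, urea and junction genes were mixed, 3 with higher and 5 with lower means and a median of -0.04. Aqp4 encodes the water channel of the endfeet that astrocytes set on vessels. It measured 2.17, 2.04, 1.98 and 2.25 in Hydroxyurea mice, against 1.93, 2.12, 2.32 and 2.36 in Control mice. Control 1 was the lowest mouse and Control 4 the highest, so every Hydroxyurea mouse lay inside the Control range. The log2 fold change was -0.07 ± 0.11 (interval -0.33 to 0.19, limma adjusted p = 0.840), and a further Aqp4 probe had the opposite sign, 0.13 ± 0.10.

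The connexin genes Gja1 and Gjb6, which form the gap junctions between astrocytes, differed in direction, and neither passed the test. Gja1, measured by 10 spots on each array, was 0.94, 0.72, 0.70 and 0.92 in Hydroxyurea mice, against 0.76, 0.69, 0.75 and 0.90 in Control mice. The groups lay on top of each other (0.04 ± 0.08, interval -0.14 to 0.23, limma adjusted p = 0.871). Gjb6 was 3.14, 3.12, 3.31 and 3.61 in Hydroxyurea mice, against 3.35, 3.62, 3.91 and 3.34 in Control mice. Hydroxyurea 1, 2 and 3 lay below every Control mouse, Hydroxyurea 4 lay among the Control mice, and Control 3 was the highest. Its value of -0.26 ± 0.16 was the most negative among the astrocyte genes, with an interval from -0.63 to 0.11 and a limma adjusted p of 0.602.

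Mlc1 and Hepacam encode membrane proteins that work together at astrocyte contacts and endfeet. Mlc1 averaged 5.15 ± 0.11 in Hydroxyurea mice and 5.14 ± 0.06 in Control mice (SD, n = 4 each), a difference of 0.01 ± 0.07. Hepacam was -1.13, -1.05, -0.99 and -1.21 in Hydroxyurea mice, against -0.24, -1.21, -1.41 and -1.30 in Control mice. Control 1 alone stood high, and without it the difference moved to 0.21, against -0.05 ± 0.24 with all 8 mice. Control 1 is the array on which repeated spots varied most, and the part this plays in the Hepacam value was not tested.

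Slc4a4, a sodium bicarbonate cotransporter, was 2.06, 2.25, 2.16 and 1.81 in Hydroxyurea mice, against 2.62, 2.24, 1.88 and 2.18 in Control mice. Hydroxyurea 4 and Control 3 were again low and Control 1 high, and the difference was -0.16 ± 0.16. A further bright probe gave -0.13 ± 0.18. A dimmer Slc4a4 probe measured -2.99, -2.92, -3.05 and -2.74 in Hydroxyurea mice, against -2.68, -2.53, -2.66 and -2.48 in Control mice. On that probe the groups did not overlap, with a difference of -0.34 ± 0.09 (limma adjusted p over all probes = 0.57). On both brighter probes they overlapped. Over all genes tested, each on its brightest probe, 7.5% did not overlap. Genes lower without overlap made up 5.11% of all genes tested. The share over all probes was not computed. Slc14a1, the urea transporter, had a log2 fold change of 0.07 ± 0.11 and Cldn10, a claudin, one of -0.03 ± 0.07.

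Both transporter genes for amino acids and zinc had higher means in Hydroxyurea mice, and neither passed the test. Slc7a10 carries small neutral amino acids, D-serine among them. It was 1.60, 1.72, 1.68 and 1.97 in Hydroxyurea mice, against 1.75, 1.47, 1.41 and 1.51 in Control mice. Apart from Control 1, every Control mouse lay below every Hydroxyurea mouse. The difference of 0.21 ± 0.11 had the smallest p of the resting genes (interval -0.04 to 0.45, limma adjusted p = 0.551). Slc39a12, a zinc importer, gave 0.08 ± 0.07, and its further probe gave 0.22 ± 0.10.

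The 7 metabolic enzymes centred near no difference, 2 with higher and 5 with lower means and a median of -0.02. Aldh1l1, a folate enzyme used as a general astrocyte marker, was 3.39, 3.63, 3.49 and 3.47 in Hydroxyurea mice, against 3.53, 3.50, 3.59 and 3.41 in Control mice. The groups were interleaved, and the log2 fold change was -0.01 ± 0.07 (interval -0.17 to 0.16, limma adjusted p = 0.975). Aldoc, the aldolase of glycolysis in astrocytes, was 7.25, 7.87, 7.40 and 7.26 in Hydroxyurea mice, against 7.29, 7.51, 7.11 and 7.28 in Control mice. Hydroxyurea 2 stood above the rest, and the difference was 0.15 ± 0.15. Acsbg1 activates long-chain fatty acids (0.01 ± 0.08), Ppp1r3c targets a phosphatase to glycogen (-0.05 ± 0.08) and Pla2g7 degrades platelet-activating factor (-0.02 ± 0.07). Dio2, which makes active thyroid hormone, had -0.09 ± 0.10, and the phospholipase Plcd4 had -0.07 ± 0.08, with a further probe at 0.12 ± 0.12.

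The pair of transcription regulators pointed in opposite directions without passing the test. Sox9, a factor that specifies glia and stays on in astrocytes, averaged 0.69 ± 0.11 in Hydroxyurea mice and 0.55 ± 0.14 in Control mice (SD, n = 4 each). The difference of 0.15 ± 0.09 came from 10 spots per array (limma adjusted p = 0.601). Id4, an inhibitor of basic helix-loop-helix factors, had -0.07 ± 0.14.

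Among 6 receptors and signalling proteins, 4 had higher and 2 had lower means, with a median of 0.10. S100b, a calcium-binding protein that astrocytes also release, was 4.95, 4.95, 4.98 and 4.84 in Hydroxyurea mice, against 4.61, 4.87, 4.87 and 4.97 in Control mice. Control 1 was the lowest mouse and the other Control mice lay among the Hydroxyurea mice. The difference was 0.10 ± 0.09 (interval -0.10 to 0.30, limma adjusted p = 0.706). Fam107a, which glucocorticoids are known to induce, had 0.18 ± 0.15, and its further probe had -0.09 ± 0.13. The neurotensin receptor Ntsr2 (0.10 ± 0.09) and Ndrg2 (0.10 ± 0.10) had like values. The growth factor receptor Fgfr3 (-0.01 ± 0.08) and the phagocytic receptor Mertk (-0.11 ± 0.10), which microglia also express, had negative ones.

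Of the 3 secreted proteins, Sparcl1, which promotes synapse formation, had 0.09 ± 0.14. The serine protease Htra1 had -0.16 ± 0.10 (limma adjusted p = 0.609). It averaged 5.01 ± 0.04 in Hydroxyurea mice and 5.16 ± 0.20 in Control mice (SD, n = 4 each), so the Control mice were the more spread. Itih3, a hyaluronan-binding chain, had -0.05 ± 0.18.

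The 4 reactive genes had a median log2 fold change of 0.16 against -0.02 for the 31 resting genes, a description of 2 medians with no test. The reactive median ranged from 0.08 without Hydroxyurea 4 and 0.10 without Control 1 to 0.25 without Hydroxyurea 3, and was 0.04 with array weights, 0.08 with median centring and 0.10 with normexp. Cd44 and Gfap had positive values, Vim a small positive one with a wide interval, and Serpina3n a value of 0.00. Gfap, the filament protein whose increase defines reactive astrocytes, was 2.94, 3.31, 3.0 and 3.41 in Hydroxyurea mice, against 2.92, 3.0, 2.64 and 3.14 in Control mice. Hydroxyurea 2 and 4 lay above every Control mouse, Control 3 lay below every other mouse, and the rest overlapped. The fold change was 1.18 (interval 0.939 to 1.49), on the log2 scale 0.24 ± 0.14, with a limma adjusted p of 0.59.

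The other Gfap probes had larger values in the same direction. The probe of middle brightness was 1.81, 2.0, 1.86 and 2.18 in Hydroxyurea mice, against 1.80, 1.61, 1.38 and 1.86 in Control mice, a difference of 0.30 ± 0.13 (limma adjusted p over all probes = 0.585). The dimmest probe was -1.47, -1.31, -0.98 and -1.19 in Hydroxyurea mice, against -1.82, -1.64, -1.87 and -1.39 in Control mice. On it only Control 4 reached into the Hydroxyurea range, and the difference was 0.44 ± 0.14 (limma adjusted p over all probes = 0.577). Control 3 was the lowest mouse on all 3 probes. The probes read the same RNA samples, so they are not separate evidence of a difference between mice.

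**Figure D2:**
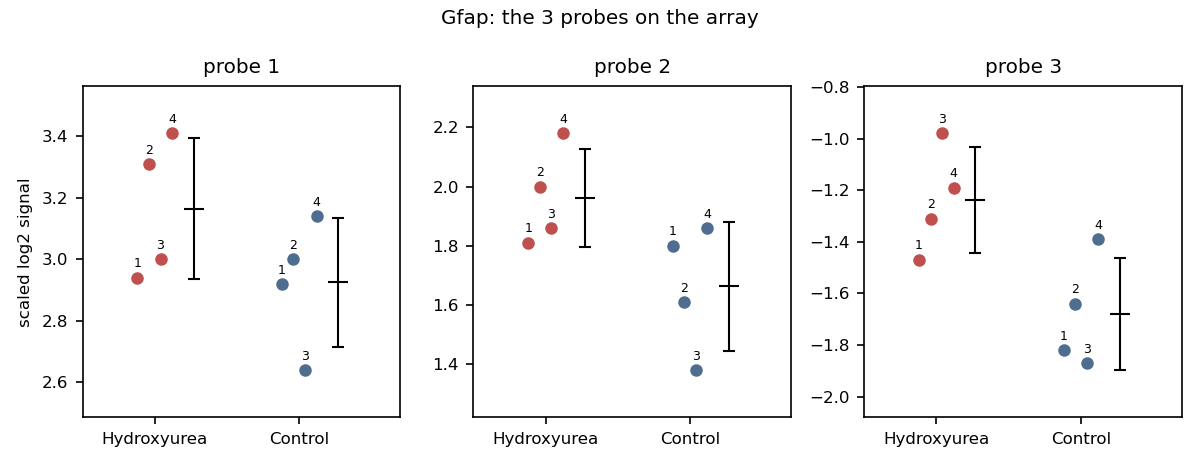
Gfap on its 3 probes, 1 panel per probe, in Hydroxyurea mice (left) and Control mice (right); the y axis is log2 signal minus the array's 75th percentile, points are mice, and bars are the mean ± SD of each group (n = 4). The differences between group means are 0.24, 0.30 and 0.44, and the groups overlap in each panel.

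The Gfap promoter window is chr11:102897151-102897450 on the minus strand. It is shown because STAT factors act on Gfap in reactive astrocytes, and capitals mark its match to TTCNNNGAA, the letters searched on both strands for STAT binding.
Gfap: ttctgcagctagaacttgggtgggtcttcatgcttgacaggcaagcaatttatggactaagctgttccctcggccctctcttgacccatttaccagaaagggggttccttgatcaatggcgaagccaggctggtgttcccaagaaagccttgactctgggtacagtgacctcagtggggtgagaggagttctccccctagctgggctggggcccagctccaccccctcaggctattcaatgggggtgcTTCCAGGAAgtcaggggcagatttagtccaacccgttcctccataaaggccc
This motif was in the windows of 5 of 31 astrocyte genes (16.1%), namely Acsbg1, Gfap, Ntsr2, Pla2g7 and Slc1a3, and in 8.47% of all promoters. The 5 genes did not share a direction, with log2 fold changes of 0.01 for Acsbg1, 0.24 for Gfap, 0.10 for Ntsr2, -0.02 for Pla2g7 and -0.11 for Slc1a3. The SOX motif AACAAT, searched on both strands, was in 1 of 31 windows (3.23%, Plcd4) and in 10.9% of all promoters.

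Cd44 encodes the hyaluronan receptor that reactive astrocytes and several immune and vascular cells carry. It was -1.62, -1.94, -1.79 and -1.48 in Hydroxyurea mice, against -2.10, -2.05, -1.73 and -2.20 in Control mice. Control 3 lay within the Hydroxyurea range, and the other Control mice lay below all Hydroxyurea mice. The fold change was 1.24 (interval 1.01 to 1.53), on the log2 scale 0.31 ± 0.13, with a limma adjusted p of 0.502. When 1 mouse at a time was left out, the unadjusted p of Cd44 stayed under 0.05 without Control 3 or without Hydroxyurea 2 and in none of the other 6 fits. With the mean of all probes Cd44 had 0.19 and did not reach that level, while Gfap had 0.33 and did. A second, dimmer Cd44 probe, above background on 7 arrays, gave 0.06 ± 0.24, and the remaining Cd44 probes were above background on 2 and 0 arrays.

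Vim, the other intermediate filament gene, was 2.34, 1.86, 1.81 and 2.72 in Hydroxyurea mice, against 1.75, 2.08, 2.46 and 2.12 in Control mice. Hydroxyurea 4, Control 3 and Hydroxyurea 1 were the highest mice and Control 1 the lowest, so the order of the mice did not follow treatment. The difference was 0.08 ± 0.23 (interval -0.45 to 0.61, limma adjusted p = 0.923). Serpina3n, a secreted protease inhibitor that is among the strongest markers of reactive astrocytes, was -1.06, -0.95, -1.04 and -1.0 in Hydroxyurea mice, against -1.34, -0.70, -1.14 and -0.87 in Control mice. The Hydroxyurea mice lay close together inside the range of the Control mice, with an SD of 0.05 against 0.28. The difference was 0.00 ± 0.13 (interval -0.31 to 0.31, limma adjusted p = 1).

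**Figure D3:**
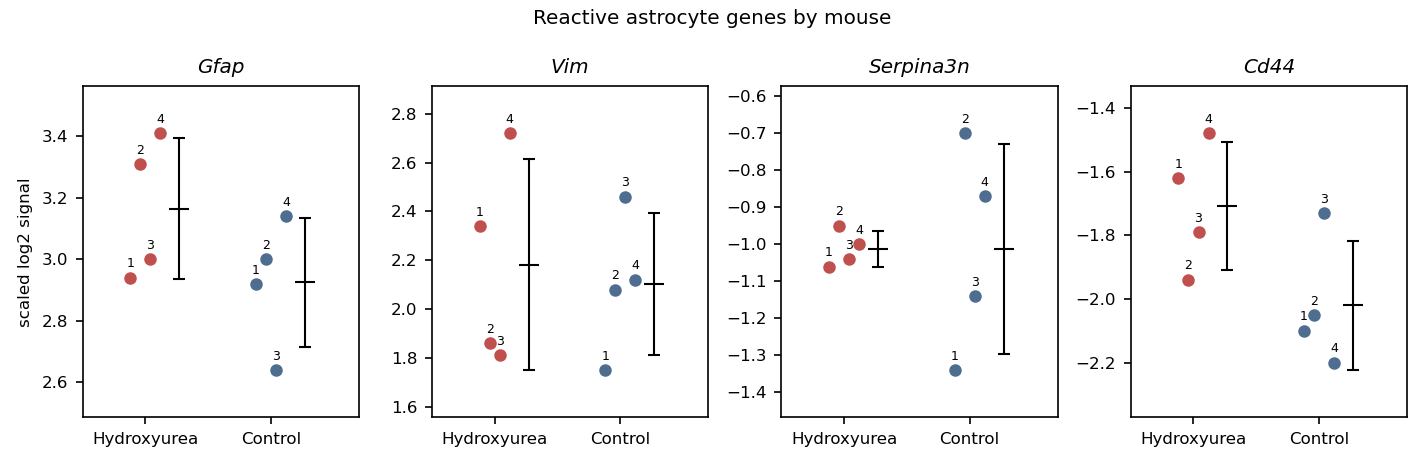
The 4 reactive genes by mouse, 1 panel per gene, in Hydroxyurea mice (left) and Control mice (right); the y axis is log2 signal minus the array's 75th percentile, points are mice labelled by number, and bars are the mean ± SD of each group (n = 4). The groups overlap for each gene, and the Hydroxyurea values of Serpina3n lie between -1.06 and -0.95.

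The promoters of Vim and Cd44 are set side by side because both genes are set against ependymal genes next. The Vim window is chr2:13574061-13574360 on the plus strand and holds 2 TTGGC matches, in capitals. The Cd44 window is chr2:102901616-102901915 on the minus strand and holds no match to any of the 3 motifs.
Vim: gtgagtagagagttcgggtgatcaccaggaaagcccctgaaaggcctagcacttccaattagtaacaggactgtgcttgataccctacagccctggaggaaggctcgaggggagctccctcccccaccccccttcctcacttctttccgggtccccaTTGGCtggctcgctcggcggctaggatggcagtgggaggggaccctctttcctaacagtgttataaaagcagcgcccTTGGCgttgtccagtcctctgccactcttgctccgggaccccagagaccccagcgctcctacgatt
Cd44: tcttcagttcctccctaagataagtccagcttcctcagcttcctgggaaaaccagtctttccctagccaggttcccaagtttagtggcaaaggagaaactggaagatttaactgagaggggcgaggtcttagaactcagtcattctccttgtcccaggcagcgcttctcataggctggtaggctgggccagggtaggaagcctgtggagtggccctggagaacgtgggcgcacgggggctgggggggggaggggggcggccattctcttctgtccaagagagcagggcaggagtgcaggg

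Genes of the cells that line the ventricles and form the choroid plexus had higher means in Hydroxyurea mice, with wide spread between mice. Of 13 ependymal genes, 12 had higher means in Hydroxyurea mice with a median of 0.54. Of 16 choroid plexus genes, 16 had higher means with a median of 1.28. Over all genes tested, 48.7% had higher means. In the limma test 0 of either list had an unadjusted p under 0.05, where 9.89% of all genes did. A score per mouse was the mean over a list of each gene's deviation from its own 8-mouse mean. The ependymal score was 0.61, -0.41, -0.45 and 1.41 in Hydroxyurea mice, against -1.54, -0.16, 0.61 and -0.08 in Control mice. The choroid plexus score was -1, 0.8, 0.1 and 2.62 in Hydroxyurea mice, against -2, -0.96, 0.78 and -0.35 in Control mice. Of the 16 choroid plexus genes, 16 lay above their 8-mouse mean in Hydroxyurea 4 and 0 in Control 1. The genes of that list are therefore not separate results. The mural and meningeal score was -0.03, -0.09, -0.16 and 0.35 in Hydroxyurea mice, against -0.37, 0.09, 0.29 and -0.08 in Control mice. Of the 13 ependymal genes, 11 were well above background on all 8 arrays and 0 were below it on all 8.

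Vim followed the ependymal score over the 8 mice. Pearson's r was 0.95 (exact permutation p = 0.000248, adjusted over 12 relations 0.00298) and Spearman's rho 0.98 (exact permutation p = 0.000397, adjusted 0.00476). Without the 2 mice farthest from the median score, r was 0.97. Vim also moved with the mural and meningeal score, with r = 0.89 (exact permutation p = 0.00288, adjusted 0.0173) and rho = 0.93 (exact permutation p = 0.00223, adjusted 0.0134), and r was 0.68 without 2 mice. For Cd44 and the ependymal score r was 0.76 (exact permutation p = 0.0261, adjusted 0.104), rho 0.67 (exact permutation p = 0.0831, adjusted 0.318) and r 0.55 without 2 mice. For Gfap and the ependymal score r was 0.20 (exact permutation p = 0.644, adjusted 0.738) and rho 0.19 (exact permutation p = 0.665, adjusted 0.793), and r turned to -0.74 without 2 mice. The other 8 relations of the 12, all pairs of a reactive gene with the ependymal, choroid plexus or mural score, had adjusted p-values from 0.213 to 0.867. A group of 4 mice is too small for a correlation of its own, but the order of the mice can be read within each group. By Vim and by the ependymal score that order was the same among the Hydroxyurea mice (3, 2, 1, 4) and the same among the Control mice (1, 2, 4, 3). By Cd44 it was 2, 3, 1, 4 among the Hydroxyurea mice and 4, 1, 2, 3 among the Control mice. The score of the longer reactive astrocyte list described below was 0.02, -0.14, -0.25 and 0.31 in Hydroxyurea mice. In Control mice it was -0.34, 0.05, 0.36 and -0.01. Its order was 3, 2, 1, 4 among the Hydroxyurea mice, as for Vim, and 1, 4, 2, 3 among the Control mice. The mural and meningeal score had these same orders, so the relations of Vim to the scores are not separate. No correlation with the longer list was computed. The part of these other cells, or of reactive astrocytes, in the Vim and Cd44 values was not tested.

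**Figure D4:**
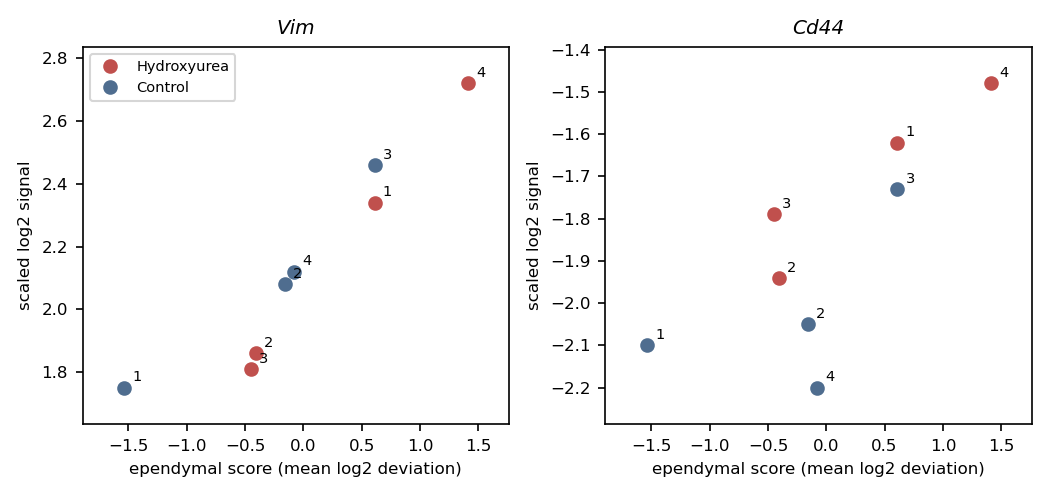
Vim (left) and Cd44 (right) against the ependymal score of the same mouse; both axes are in log2 units, the y axis relative to the array's 75th percentile, and points are the 8 mice, coloured by group. Mice with a higher score have more Vim signal (r = 0.95 over all 8), and for Cd44 r is 0.76.

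The resting genes as a group varied little between mice. Their score was -0.04, 0.07, -0.03 and -0.01 in Hydroxyurea mice, against 0.06, -0.01, -0.03 and -0.01 in Control mice, a difference in means of -0.01. The highest scores were those of Hydroxyurea 2, the dimmest array, and Control 1, the array with the most variable spots. The reactive score was 0.07, -0.01, -0.08 and 0.33 in Hydroxyurea mice, against -0.27, 0.00, -0.02 and -0.03 in Control mice. Hydroxyurea 4 was the highest and Control 1 the lowest, as they were for the ependymal score.

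Single astrocyte genes nevertheless set particular mice apart, and not by treatment. Hydroxyurea 2 was the highest mouse for 8 of the 35 genes and lay above the 8-mouse mean in 23 of them, compared with 11 for Hydroxyurea 1 of the same age. Control 1 was the highest mouse for 8 genes. Control 3 was the highest for 7 and the lowest for 10. Aldoc, Sparcl1, Fam107a, Ntsr2 and Ndrg2 were highest in Hydroxyurea 2 and low in Control 3, while Gjb6, Htra1, Mertk, Plcd4 and Fgfr3 were highest in Control 3. Sparcl1 shows the first pattern, with 7.46, 7.93, 7.60 and 7.37 in Hydroxyurea mice, against 7.48, 7.67, 7.30 and 7.55 in Control mice. Htra1 shows the second, with 4.98, 5.04, 4.98 and 5.03 in Hydroxyurea mice, against 4.96, 5.23, 5.41 and 5.06 in Control mice. The 75th percentile of the signal was lowest on Hydroxyurea 2 (1052) and highest on Control 3 (2417). With quantile scaling the log2 fold change was -0.01 for Aldoc and -0.07 for Sparcl1. Fam107a, Ntsr2 and Ndrg2 stayed positive at 0.20, 0.10 and 0.05. The part of array brightness in these patterns was not tested.

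**Figure D5:**
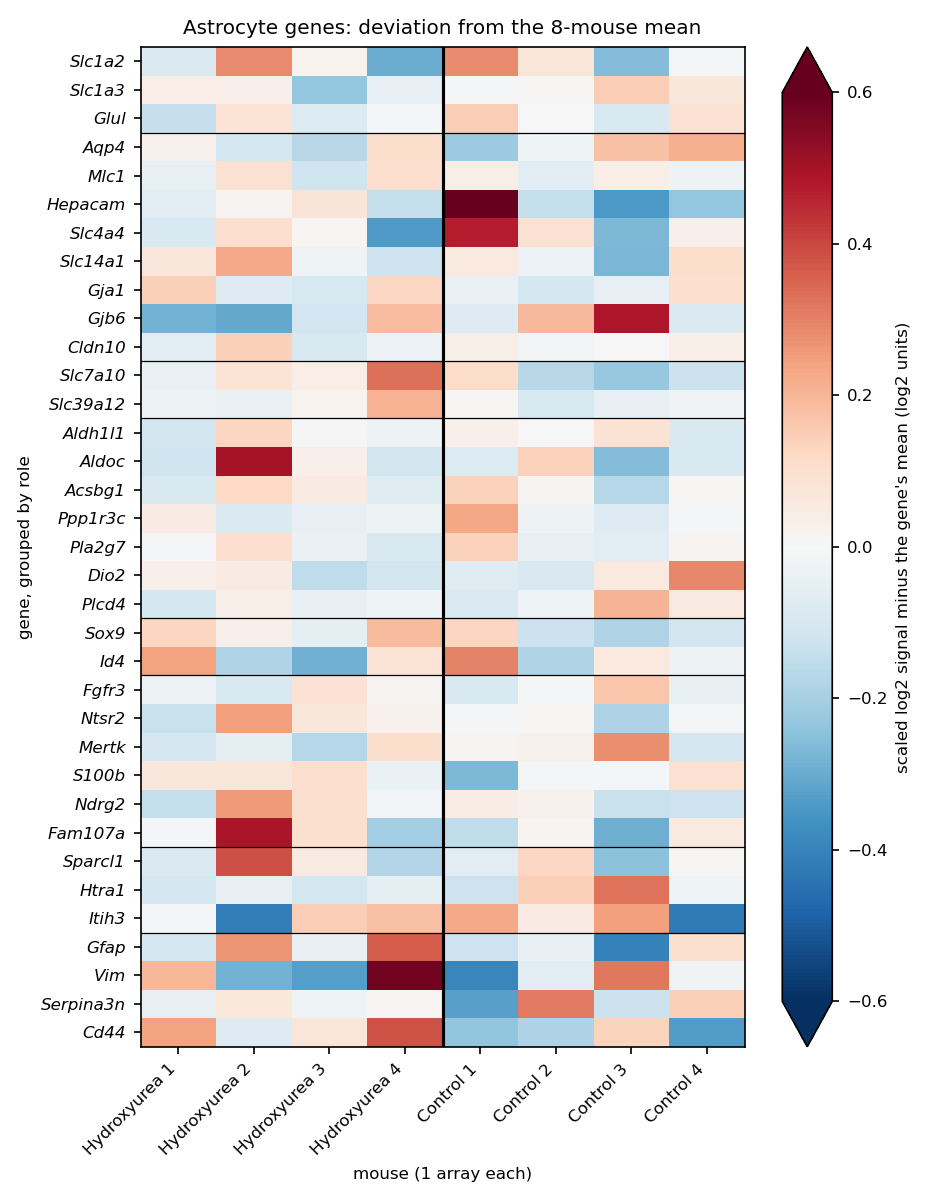
Deviation of each of the 35 astrocyte genes (rows, grouped by role) from its own mean over the 8 mice (columns, Hydroxyurea 1 to 4 then Control 1 to 4), in log2 units, with the colour scale beside it. Blocks of genes are high in Hydroxyurea 2 or in Control 3, the arrays with the lowest and the highest 75th percentile of signal, and no row separates the 2 treatments.

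Longer lists of astrocyte genes also held small differences in both directions. Of 52 further astrocyte genes, 25 had higher and 27 lower means, with a median of 0.00, and 2 higher and 3 lower had an unadjusted p under 0.05. That is close to the share over all genes tested, 9.89% (3.53% higher and 6.36% lower). The 3 lower ones had groups that did not overlap, where 5.11% of all genes were lower without overlap. Slc15a2, a peptide transporter, was -0.15, -0.31, -0.28 and -0.30 in Hydroxyurea mice, against 0.07, 0.13, 0.17 and 0.37 in Control mice. All Hydroxyurea mice lay below all Control mice (-0.45 ± 0.08, limma adjusted p = 0.452), and this list was put together with that result known. Gldc, of the glycine cleavage system, had -0.27 ± 0.10 (limma adjusted p = 0.477) and the fatty acid enzyme Acsl3 had -0.22 ± 0.09 (limma adjusted p = 0.494).

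Of 33 further reactive astrocyte genes, 29 were tested, and 11 had higher and 18 lower means with a median of -0.03. None had an unadjusted p under 0.05 in the limma test, and 0 passed after adjustment. The smallest p belonged to Aspg, an asparaginase, at -0.36 ± 0.17 (limma adjusted p = 0.517), S1pr3, a lipid receptor, at 0.18 ± 0.10, and Nes, the filament protein nestin, at 0.19 ± 0.12. The positive median of the 4 reactive genes was not seen in this longer list. Of 10 radial glia and progenitor genes, 7 had higher and 3 lower means with a median of 0.08, where 48.7% of all genes had a higher mean. Hopx, which marks stem cells of the dentate gyrus and mature astrocytes, had the smallest p, at 0.23 ± 0.10 (limma adjusted p = 0.506). Next came Sox11 at -0.22 ± 0.13 and Tfap2c at 0.50 ± 0.32. For Tfap2c, Hydroxyurea 1 measured -3.73 and all other mice -5.48 to -5.06.

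Within the Hydroxyurea group, the 24-week mice were set against the 19-week mice. No Control mouse was 24 weeks old and treatment began at different ages, so the effects of age and of when treatment began cannot be told apart. With 2 mice on each side, limma called 0 of 35 astrocyte genes and 0 of all genes (0%), and 0 astrocyte genes had an unadjusted p under 0.05, where 2.7% of all genes did. The 24-week mean was higher for 25 astrocyte genes and lower for 10, with a median of 0.02, and 44.5% of all genes were higher. The smallest p-values were those of Slc1a3 at 0.17 ± 0.10, Slc39a12 at -0.15 ± 0.09 and Gjb6 at -0.33 ± 0.21 (limma adjusted p = 1 for each). Gjb6 averaged 3.13 in 24-week and 3.46 in 19-week Hydroxyurea mice, while the Control mice, all 19 weeks old, averaged 3.56. Gfap averaged 3.12 in 24-week and 3.21 in 19-week Hydroxyurea mice, both above the Control mean of 2.93. In each pair 1 mouse, at 2.94 and at 3.0, lay within the Control range of 2.64 to 3.14.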

How the data were processed

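Per the file headers, the scanner software was Feature Extraction 12.0.3.1, and its processed signal intensity of each spot was used here. It is background-subtracted, and the deposited files hold no normalization between arrays. The same deposited files hold flags, and the median signal intensity of spot and local background. The authors' deposited value table holds a z score per array, which a recomputed score matched to within 0.005; its columns have medians from -0.21 to -0.17.

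Of 55681 non-control probes, 28331 had a RefSeq accession of 1 gene, which named 21368 genes in the GRCm38.p6 gene table. The headers name another build, mm9, so only RefSeq's own promoter coordinates are printed. Log2 of the processed signal minus the array's 75th percentile was the value. Outlier spots were left out, spots of a probe averaged, and the probe with the highest mean stood for the 5754 genes with over 1. Of the 35 astrocyte genes, 11 had over 1 probe, and in 5 of these the probes differed in sign. Testing needed a signal well above background on 4 or more of 8 arrays and a value on 6 or more, which 16620 genes had. The two-sided test was limma's (version 3.58.1, R 4.3.3; lmFit, eBayes), adjusted by Benjamini-Hochberg at a threshold of 0.05, and age used 3 group means over all 8 arrays. Each replicate is 1 mouse, and 4 arrays per group limit the precision. Hydroxyurea arrays had 59.7% to 69% of probes well above background and Control arrays 62.1% to 76.7%, and no spot was saturated. The script was tested on simulated data.

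The members, lists and roles were chosen with earlier results of these data known. All members are named; values by mouse were set for the reactive genes, for Slc1a2, Slc1a3, Glul, Aqp4, Aldh1l1, S100b, Gja1 and Gjb6, for members at an unadjusted p under 0.05 and for members whose groups did not overlap. Up to 3 genes of smallest p are named per other list and for age. Values by mouse of Hepacam, Slc4a4, Slc7a10, Aldoc, Sparcl1 and Htra1, and of probes that did not stand for a gene, were added after seeing them. Alternatives tried were quantile scaling, median centring, the deposited z score, normexp with an offset of 50 on the median signal, other filters and probe rules, 19-week mice only, array weights, the replicate number as a block, and leaving out arrays.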

Additional observations from a re-analysis of the deposited data

Results flagged for a closer look

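The neurotensin receptor gene Ntsr2 had 1 mouse far from the others of its group. Control 3 measured 4.41, against 4.58 to 4.60 in the other 3 Control mice, and the gap was 0.923 of the whole range of the group. The Hydroxyurea mice measured 4.46, 4.84, 4.66 and 4.62. This was 1 of 70 groups of 4 mice looked at over the 35 astrocyte genes, and chance alone would mark about 5% of such groups.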

How the results depend on the processing

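No gene was called between Hydroxyurea and Control mice under any of 19 alternatives, and the lowest adjusted p of an astrocyte gene was 0.121, for Cd44 with array weights. Cd44 and Gfap kept positive signs throughout, on the log2 scale from 0.19 to 0.42 and from 0.06 to 0.33. Of the 35 genes 13 turned sign in no setting, although Dio2 and Htra1 rounded to 0 in the value table. The 21 that turned had values of at most 0.15 in size in the report. Serpina3n, at 0.00 in the report, lay between -0.16 with array weights and 0.10 without Control 2. The cause of these shifts was not tested. The count of astrocyte genes at an unadjusted p under 0.05, 1 in the report, was 0 with quantile scaling, median centring, no filter or 19-week mice only, 2 with normexp, 3 with the value table, array weights or without Control 1 and Hydroxyurea 2, and 0 to 4 when single arrays were left out, with 4 without Control 1 and 0 without Control 2, Control 4, Hydroxyurea 1 or Hydroxyurea 3. Cd44 was among those counted with normexp, with array weights and without Control 1 and Hydroxyurea 2. The value table had Ntsr2, S100b and Gfap instead, the mean of all probes had Gfap alone, and the fit without Hydroxyurea 4 had Gjb6 alone. Over all genes tested, 1643 of 16620 in the report became 3517 with array weights and 2327 without Control 1 and Hydroxyurea 2. The count was 2131 with median centring, 2012 with the value table, 1963 with normexp, 1669 with quantile scaling and 1104 in 19-week mice only. Without the filter it was 2483 of 21368. Leaving out single arrays gave 1110 to 2521, the most without Control 1. Astrocyte genes with higher means, 16 in the report, were 26 in the value table, whose z scale gives no log2 medians, and 10 with median centring, which moved the median of all genes to -0.09, that of the resting genes to -0.10 and that of the reactive genes to 0.08. The reactive median, 0.16 in the report, was 0.04 with array weights, 0.10 with normexp and 0.08 to 0.25 leaving out single arrays. Genes called for age were 0 to 7, with 1 without Hydroxyurea 3 and 7 without Hydroxyurea 4.

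Signs turned as follows. Quantile scaling gave Cldn10 0.01, Aldh1l1 0.02, Aldoc -0.01, Fgfr3 0.02 and Sparcl1 -0.07. Median centring gave Mlc1 -0.07, Slc14a1 -0.01, Gja1 -0.04, Slc39a12 -0.01 and Acsbg1 -0.08. Normexp gave Hepacam 0.06, Acsbg1 -0.06 and Fgfr3 0.03. The value table, in z units, gave Slc1a2 0.01, Slc1a3 0.01, Glul 0.03, Cldn10 0.01, Aldh1l1 0.03, Pla2g7 0.03 and Fgfr3 0.02. The mean of all probes gave Slc1a2 0.03, Aqp4 0.03, Pla2g7 0.04 and Plcd4 0.03. In 19-week mice Mlc1 was -0.01, Slc14a1 -0.04, Acsbg1 -0.01, Fgfr3 0.04, Sparcl1 -0.01 and Itih3 0.14. Without Control 1 and Hydroxyurea 2, Hepacam was 0.20, Ppp1r3c 0.03, Id4 0.06, Sparcl1 -0.03 and Itih3 0.15. Array weights gave Hepacam 0.15, Slc14a1 -0.02, Aldh1l1 0.02, Acsbg1 -0.01, Fgfr3 0.03 and Itih3 0.24. Leaving out single arrays moved Slc1a2 from -0.15 to 0.05, Mlc1 from -0.02 to 0.05, Hepacam from -0.18 to 0.21, Slc14a1 from -0.01 to 0.13, Aldh1l1 from -0.05 to 0.03, Acsbg1 from -0.05 to 0.05, Ppp1r3c from -0.09 to 0.01, Pla2g7 from -0.06 to 0.02, Id4 from -0.17 to 0.01, Fgfr3 from -0.05 to 0.04, Sparcl1 from -0.02 to 0.17, Itih3 from -0.20 to 0.08 and Vim from -0.10 to 0.20.

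Whether the replicate numbers pair the mice was not settled. Deviations of same-numbered mice correlated at 0.05, 0.20, -0.21 and -0.06, with no reference range to judge these values by. With the number as a block 0 genes were called, 1318 had an unadjusted p under 0.05, and 1 astrocyte gene did, Gfap in place of Cd44.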

Other observations

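Lists of other glia, neurons and vessel cells had medians close to 0 between Hydroxyurea and Control mice. Of 11 oligodendrocyte genes, 8 had higher and 3 lower means, where 48.7% of all genes had a higher mean. Those of smallest p were Ermn at -0.34 ± 0.11 (limma adjusted p = 0.472), Cnp at 0.23 ± 0.17 and Opalin at 0.28 ± 0.21. The median log2 fold change was 0.06 over these 11 genes and -0.02 over 7 oligodendrocyte precursor genes. It was 0.03 over 13 microglia genes, 0.01 over 13 neuron genes, 0.00 over 11 endothelial genes and 0.04 over 13 mural and meningeal genes. The 9 dentate gyrus genes tested had a median of -0.20, 2 with higher and 7 with lower means, among them Trpc6 at -0.39 ± 0.14 (limma adjusted p = 0.477).

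Of 14 glucocorticoid-induced genes, 1 had a higher and 13 had lower means in Hydroxyurea mice, where 48.7% of all genes had a higher mean. The median was -0.14, where all genes had 0.00. Fam107a, named above as glucocorticoid-induced, is not on this list and had 0.18 ± 0.15, with its further probe at -0.09 ± 0.13. The list was chosen with earlier results of these data known. Errfi1, a feedback inhibitor of growth factor receptors, was 2.56, 2.50, 2.71 and 2.62 in Hydroxyurea mice, against 2.71, 3.03, 3.03 and 2.92 in Control mice (-0.33 ± 0.09, limma adjusted p = 0.452). Its groups met without overlap at Hydroxyurea 3 and Control 1, both 2.71 after rounding. Over all genes tested, 5.11% were lower without overlap. Sgk1, a kinase that glucocorticoids induce, was 2.35, 2.38, 2.53 and 3.0 in Hydroxyurea mice, against 2.53, 3.08, 3.84 and 2.70 in Control mice, with Control 3 the highest (-0.47 ± 0.29, limma adjusted p = 0.597). Control 3 also had the highest score of this list, 0.47.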
